A study of Homo sapiens with 4 samples.

Results

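The genes of cholesterol and fatty acid synthesis were followed across LNCaP-derived prostate cancer cells built for MeTA, a method that activates genes at methylated CpG sites. The list holds 36 genes of the 19480 with a named probe on the array, chosen by name for their place in the pathway by a rule that uses no measured value, with earlier results of these data known. Each gene was represented by its brightest probe. All 36 had a probe and all could be compared in both cell lines.

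TR9_MeTA14 and TR15_MeTA5 (TR9-MeTA14 and TR15-MeTA5 in the labels) were made from LNCaP, a human prostate cancer line. The parental lines TR9 and TR15 carry a stably transfected Tet repressor, and both were then stably transfected with a construct for NFκB (AD)-MBD, a fusion of an NFκB activation domain and a methyl-CpG binding domain that tetracycline switches on. RNA was taken from each line after 4 days with tetracycline (+Tet) or without it (-Tet), which gave 4 Agilent whole-genome arrays of 1 color, 1 per condition. All 4 samples therefore carried the Tet repressor and the fusion construct, and the control differed by tetracycline alone. Arrays of tetracycline-treated parental cells were not analysed here, so the drug and the fusion protein cannot be told apart. Each line is a single stably transfected line, and the array labels give 1 experiment.

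Cholesterol is built from cytosolic acetyl-CoA through mevalonate, farnesyl diphosphate, squalene and lanosterol. Fatty acids are built from the same acetyl-CoA through malonyl-CoA and are then elongated and desaturated. Most of these genes share a control by the sterol regulatory element binding proteins (SREBPs), which are held in the endoplasmic reticulum by INSIG proteins when sterols are plentiful and are escorted by SCAP to the Golgi for activation when sterols are scarce. Prostate cancers are known for high levels of these enzymes.

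Signals are given below as multiples of the 75th percentile signal of the same array, so that their ratios equal the fold changes, and a pair of signals is always given with the -Tet array first. That percentile was 617 and 776 units in TR9_MeTA14 without and with tetracycline, and 366 and 542 units in TR15_MeTA5. Between 20552 and 24206 of 34112 probes were well above background per array, and no spot was saturated. Probes spotted 10 times on each array put the technical SD of a log2 ratio at 0.087, so ratios beyond 0.17 on the log2 scale, 2 technical SD, were larger than the spotting error. This error does not hold the spread between cultures, which 1 array per condition cannot give, so no test was possible within a line. Per the labels, each array's cRNA was made from the same amount of RNA, so values are shares of each sample's RNA. Fewer cells expressing a gene and less of its RNA per cell cannot be told apart.

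The prostate luminal markers were read on the same arrays. All 8 were well measured on every array, and their summed relative signal was 453 and 170 in TR9_MeTA14 without and with tetracycline and 604 and 383 in TR15_MeTA5. With tetracycline 5 of the 8 were at least 2-fold lower in TR9_MeTA14 (15.1% of all genes). Among them was KLK3, which encodes prostate-specific antigen, at a log2 fold change of -1.95. None reached 2-fold in TR15_MeTA5, where 2.21% of all genes were that much lower and KLK3 stood at -0.70. The marker medians were -1.78 in TR9_MeTA14 and -0.58 in TR15_MeTA5. In TR9_MeTA14, 7 of the 8 were below 0 and 1 was above it (52.9% of all genes were below 0). All 8 were below 0 in TR15_MeTA5 (64.1%). Much of the summed signal was that of KLK3 alone, at 234 and 60.6 in TR9_MeTA14 and 369 and 228 in TR15_MeTA5. Of 6 markers of other cell types, PECAM1, COL3A1, KRT5 and KRT14 were at or near background. PTPRC and COL1A1 were well above background on every array. The summed relative signal of the 6 stayed between 0.473 and 0.970. The part of the lower luminal markers in the results below was not tested.

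With tetracycline most of the pathway was lower in both lines, and more so in TR9_MeTA14. In TR9_MeTA14, 17 of the 36 genes were at least 2-fold lower, against 15.1% of all 15076 genes compared, and 1, MVD, was at least 2-fold higher, against 16.8%. The median log2 fold change was -0.98, beside -0.06 over all genes. In TR15_MeTA5, 8 of 36 were at least 2-fold lower, against 2.21% of 14339 genes, and none was 2-fold higher, against 9.77%. Their median was -0.65, beside -0.16 over all genes. Scaling on the spike-in probes, which moved the median of all genes by 0.14 in TR9_MeTA14 and 0.43 in TR15_MeTA5, left 17 lower and 2 higher in TR9_MeTA14 (12.3% and 18.8% of all genes) and 2 lower and none higher in TR15_MeTA5 (0.690% lower). Normexp background correction with quantile normalization left 4 lower in TR15_MeTA5 (0.551%).

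Lower by at least 2-fold in both lines were 7 of the 36 genes, against 0.837% of the 13976 genes compared in both. These were INSIG1, STARD4, FADS1, FADS2, ACAT2, ME1 and LPIN1. No member was 2-fold higher in both, where the share over all genes was 8.21%. Counting every ratio beyond 2 technical SD, 27 of 36 were lower in both lines (34.1% of all genes) and 2, MVD and IDI1, were higher in both (21.2%). The sign alone was negative in both lines for 29 members (47.4%), and in TR15_MeTA5 for 33 (64.1%), or for 26 with spike-in scaling (21.9%). Most prostate luminal markers were also lower on the same arrays, as given above. The count of 7 depended on the scaling of the arrays. Spike-in scaling left INSIG1 and STARD4 (0.207% of all genes). Normexp with quantile normalization left INSIG1, STARD4, FADS1 and FADS2 (0.200%), so the share over all genes fell as well.

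**Figure D1:**
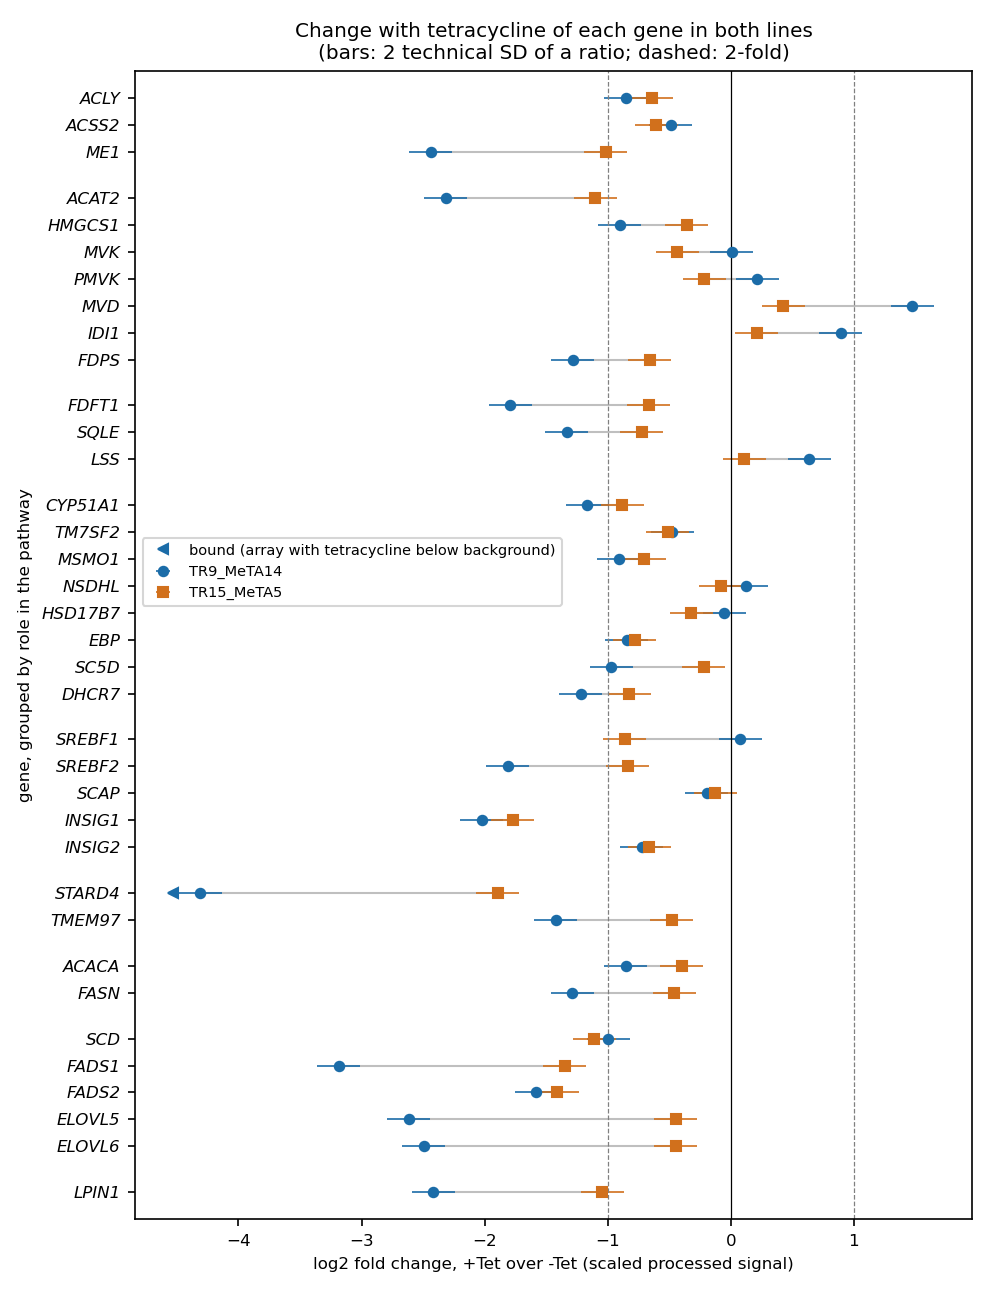
Log2 fold change of each gene (rows, grouped by role) with tetracycline over without it, in TR9_MeTA14 (circles) and TR15_MeTA5 (squares), with bars of 2 technical SD (0.17). Most points lie left of 0 in both lines, 7 genes lie left of the dashed 2-fold line in both, and MVD and IDI1 lie right of 0 in both. The arrow marks STARD4 in TR9_MeTA14, whose value is a bound.

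Taking the lines as replicates of each other, limma with the line as a block called none of the 36 at an adjusted p below 0.05. Over all genes it called 457 of 14464 as higher (3.16%) and 1 as lower (0.00691%). At an unadjusted p below 0.05, 17 of 36 members were lower (8.14% of all genes) and none was higher (13.1%). The lowest adjusted p among the members was that of INSIG1, at 0.0526 for a log2 fold change of -1.90 ± 0.25 (SE, 2 lines, lower in both). It ranged from 0.0127 to 0.0755 over the alternatives tried. FADS2 followed at -1.49 ± 0.27 with a limma adjusted p of 0.0908, then STARD4 at -3.25 ± 0.73 with 0.144, a fit that takes its value below background as measured. With 4 arrays the fit had 1 residual degree of freedom of its own. On simulated data it recovered 3% of 4-fold changes and 54% of 16-fold changes, with 8 false calls. Fewer probes were changed in that simulation than the fit called in these data, which makes the adjusted cut-off stricter there. The shares recovered may therefore not carry over to these data.

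RefSeq promoter windows, from 250 bases before to 50 bases after a gene's start (GRCh38.p14), were read for 32 of the 36 genes. No window was at hand for ACAT2, FASN, FDFT1 and SQLE, so statements on windows leave them out. Windows for 4 members are shown, each 5′ to 3′ on the gene's strand. INSIG1 and STARD4 are shown because they were the lowest of the list in TR15_MeTA5, SREBF2 because it was the only member whose window holds the core of the sterol regulatory element, the DNA motif that SREBPs bind, and MVD because it was the highest of the list in both lines. Capitals mark that core (TCACNCCAC), CCAAT boxes (CCAAT) and the palindrome TCACGTGA, an E-box form that SREBPs can also bind, all on either strand. The windows are chr7:155297628-155297927 (+) for INSIG1, chr5:111512486-111512785 (-) for STARD4, chr22:41832855-41833154 (+) for SREBF2 and chr16:88663042-88663341 (-) for MVD.
INSIG1: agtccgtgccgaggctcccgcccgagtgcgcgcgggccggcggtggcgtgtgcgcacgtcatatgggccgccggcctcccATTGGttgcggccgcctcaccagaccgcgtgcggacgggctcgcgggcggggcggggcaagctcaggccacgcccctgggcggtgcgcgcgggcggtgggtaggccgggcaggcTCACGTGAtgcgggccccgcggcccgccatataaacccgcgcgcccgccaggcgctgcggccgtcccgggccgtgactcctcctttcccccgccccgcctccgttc
STARD4: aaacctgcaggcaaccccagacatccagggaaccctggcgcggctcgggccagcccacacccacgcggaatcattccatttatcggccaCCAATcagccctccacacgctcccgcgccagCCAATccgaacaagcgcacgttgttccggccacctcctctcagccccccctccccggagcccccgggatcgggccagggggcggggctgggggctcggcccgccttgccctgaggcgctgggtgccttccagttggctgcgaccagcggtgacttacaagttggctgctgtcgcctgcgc
SREBF2: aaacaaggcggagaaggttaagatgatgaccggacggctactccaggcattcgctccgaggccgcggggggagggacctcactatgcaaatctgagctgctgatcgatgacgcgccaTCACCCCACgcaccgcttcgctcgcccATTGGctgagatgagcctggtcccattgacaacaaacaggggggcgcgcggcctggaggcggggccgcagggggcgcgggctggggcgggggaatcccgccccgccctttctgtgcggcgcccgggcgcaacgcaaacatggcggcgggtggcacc
MVD: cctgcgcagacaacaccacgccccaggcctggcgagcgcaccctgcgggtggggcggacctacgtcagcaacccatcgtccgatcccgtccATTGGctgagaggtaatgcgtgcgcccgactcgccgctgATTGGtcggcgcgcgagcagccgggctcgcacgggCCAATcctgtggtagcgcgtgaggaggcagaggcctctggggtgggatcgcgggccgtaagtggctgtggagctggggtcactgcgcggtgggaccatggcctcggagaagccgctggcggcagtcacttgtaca
The SREBF2 core lay 133 bases before the start, with a CCAAT box, here as its reverse complement ATTGG, 27 bases from it. By gene, the core was in the window of 1 of 32 members (3.12%), beside 1.496% of the 15173 genes with a probe and a window. The TCACGTGA form, added to the search after the sequences were seen, was in that of INSIG1 alone (3.12%, beside 1.68%). CCAAT boxes, bound by NF-Y, a usual partner of SREBPs, were in 23 of 32 members (71.9%), beside 42.2% of genes, and 16 members (50%) held at least 2, beside 14.97%. GC boxes (GGGCGG), bound by Sp1, were in 30 (93.8%), beside 65.1%. Of the 6 genes 2-fold lower in both lines that had a window, 3 held a CCAAT box, and MVD, which was higher in both, held 3 such boxes. The members' windows also held a median of 28 CpG sites, the site a methyl-CpG binding domain needs, beside 21 over the windows of all genes with a probe. By gene, taking each gene's highest window, the medians were 29 and 25. For the members 2-fold lower in both lines the median was 24 over windows and 29.5 by gene. The INSIG1 window held 48, and 1 window of ACACA held 53. The methylation of these windows in the cells was not measured on the arrays. A match is a description of letters in the window, not a bound site.

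INSIG1 and STARD4, of the genes that control the SREBPs and that handle sterols in the cell, were lower by more than any other member in TR15_MeTA5, and STARD4 also in TR9_MeTA14. INSIG1, which retains SREBPs in the endoplasmic reticulum and is itself a well-known SREBP target, had relative signals of 4.86 without and 1.20 with tetracycline in TR9_MeTA14 and of 3.83 and 1.12 in TR15_MeTA5. Both +Tet arrays were below both -Tet arrays. The share of all genes whose arrays separate in this way was not counted. Other members, such as SQLE, separate too, so here and below this is a description only. The INSIG1 folds were 4.06 and 3.42. Among all genes compared these changes lay at the 3.6th percentile in TR9_MeTA14 and at the 0.377th in TR15_MeTA5. Its relative INSIG2, which is less bound to SREBP activity, showed 0.505 against 0.305, and 0.267 against 0.169, a log2 fold change of -0.73 and -0.66, short of 2-fold in both lines. A dimmer INSIG2 probe gave -0.72 and -0.33.

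STARD4, a carrier that moves cholesterol between membranes, had processed signals of 220 and 11.4 units without and with tetracycline in TR9_MeTA14 and of 85.5 and 34.0 in TR15_MeTA5. The TR9_MeTA14 +Tet array held the only member value that was not well above background, so the gene was at least 19.8-fold lower there. In TR15_MeTA5 it was 3.72-fold lower. These changes lay below the 1st percentile of all genes in each line, at 0.0663 and 0.314. TMEM97, a sterol-responsive protein of endoplasmic reticulum and lysosome, was 2.68-fold lower in TR9_MeTA14 and 1.40-fold lower in TR15_MeTA5.

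The genes of the SREBPs themselves did not move alike. SREBF2, whose protein drives the sterol genes, stood at 9.15 and then 2.61 in TR9_MeTA14, and at 4.498 and then 2.52 in TR15_MeTA5, 3.51-fold and 1.79-fold lower. SREBF1, whose protein drives the fatty acid genes, gave 46.9 against 49.4 in TR9_MeTA14, within the spotting error, and 49.0 against 27.0 in TR15_MeTA5, 1.81-fold lower. Its second probe, which was dimmer, gave -0.02 and -0.21 on the log2 scale, so the probes of SREBF1 differed in TR15_MeTA5. SCAP, the escort, was at -0.20 and -0.13, close to the medians of all genes, and its sign in TR15_MeTA5 turned with spike-in scaling and with normexp and quantile normalization.

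**Figure D2:**
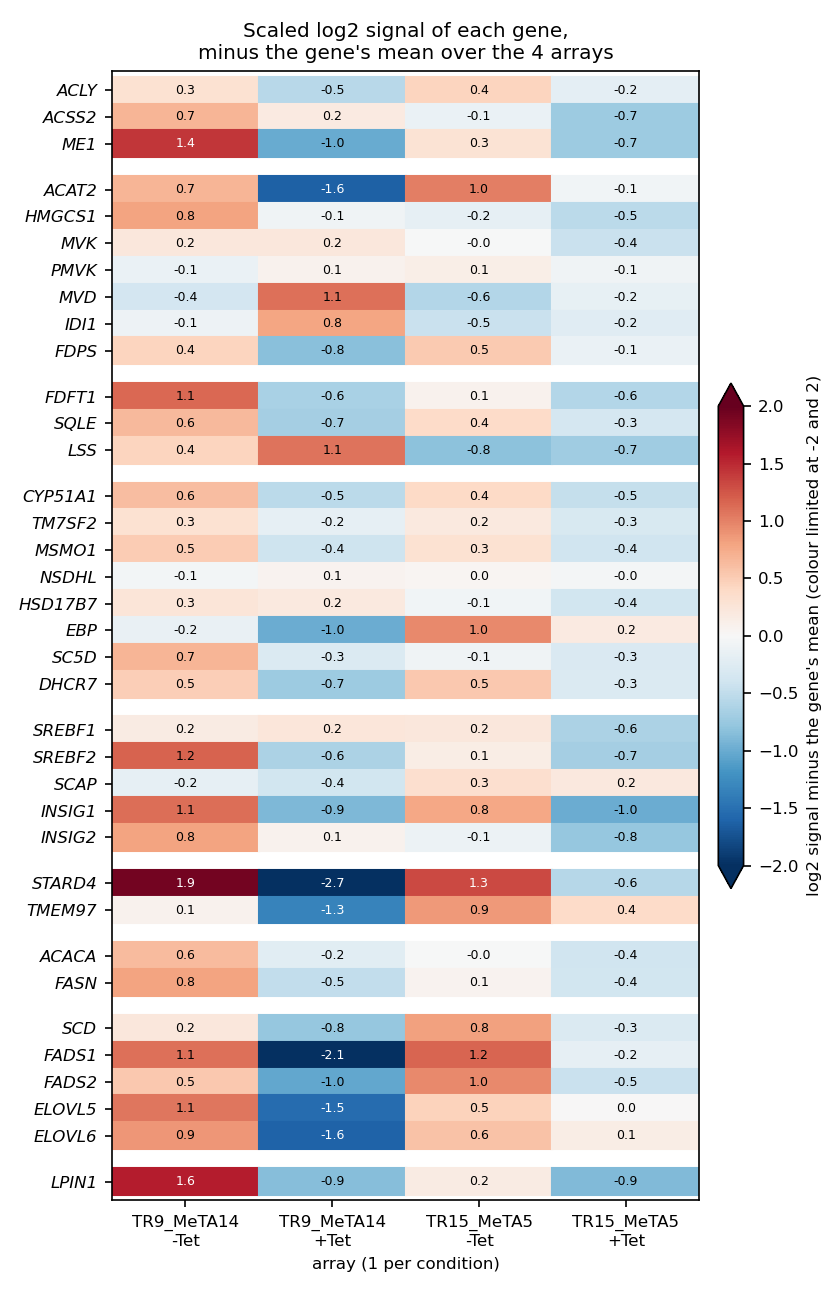
Scaled log2 signal of the 36 genes (rows, by role) on the 4 arrays (columns), each shown as its difference from the gene's mean over the arrays. The +Tet columns are mostly blue, and INSIG1, STARD4 and FADS1 run from red to blue in both lines, while MVD and IDI1 run the other way. The STARD4 value in TR9_MeTA14 +Tet is below background.

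In the supply of cytosolic acetyl-CoA and NADPH all 3 genes were lower in both lines (47.4% of all genes). ME1, the cytosolic malic enzyme that yields NADPH, gave 0.670 against 0.124 in TR9_MeTA14, and 0.303 against 0.150 in TR15_MeTA5, 5.42-fold and 2.02-fold lower. Both -Tet arrays were above both +Tet arrays. ACLY, which makes cytosolic acetyl-CoA from citrate, stood at -0.85 and -0.64 on the log2 scale. ACSS2, which makes it from acetate, was at -0.49 and -0.60, so neither reached 2-fold.

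The early mevalonate and isoprenoid steps were mixed, with a median of 0.01 in TR9_MeTA14 and -0.36 in TR15_MeTA5 over 7 genes. ACAT2, the cytosolic thiolase that joins acetyl-CoA units, was among the lowest of the list, with 7.35 against 1.48, and 9.38 against 4.37, which is 4.97-fold and 2.14-fold lower, with no overlap between the +Tet and -Tet arrays. HMGCS1, the cytosolic HMG-CoA synthase, was at -0.90 and -0.36, the latter above 0 with spike-in scaling. FDPS, which makes farnesyl diphosphate, showed 32.3 against 13.2, and 34.1 against 21.6, 2.44-fold and 1.58-fold lower.

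Between these steps the kinases and decarboxylase behaved otherwise. MVD, the mevalonate diphosphate decarboxylase, had a signal of 0.628 without and 1.75 with tetracycline in TR9_MeTA14, and 0.543 against 0.728 in TR15_MeTA5, 2.78-fold and 1.34-fold higher, with no overlap between the +Tet and -Tet arrays. IDI1, the isopentenyl diphosphate isomerase, showed 1.81 against 3.35, and 1.41 against 1.63, 1.86-fold and 1.16-fold higher, and here the TR15_MeTA5 +Tet array lay below the TR9_MeTA14 -Tet array. The mevalonate kinase MVK differed by less than the spotting error in TR9_MeTA14, at 0.01, and was lower in TR15_MeTA5, at -0.44. The phosphomevalonate kinase PMVK was at 0.21 in TR9_MeTA14 and at -0.22 in TR15_MeTA5, where spike-in scaling turned its sign. In limma neither MVD (0.95 ± 0.36, adjusted p = 0.262) nor IDI1 (0.55 ± 0.30, adjusted p = 0.355) passed.

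Of the genes that commit the pathway to sterols, FDFT1, the squalene synthase, stood at 29.9 and then 8.62 in TR9_MeTA14, and at 14.3 and then 9.01 in TR15_MeTA5, 3.46-fold and 1.59-fold lower. SQLE, the squalene epoxidase and a rate-limiting enzyme, was 2.52-fold and 1.65-fold lower. LSS, which closes lanosterol's rings, was the exception: its probe gave 9.05 against 14.1 in TR9_MeTA14, 1.56-fold higher, and 3.76 against 4.05 in TR15_MeTA5, within the spotting error. A second, dimmer LSS probe was 1.45 higher on the log2 scale in both lines, with 0.524 against 1.43 and 0.103 against 0.281, so the LSS probes had the same sign and unequal size.

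The 8 genes from lanosterol to cholesterol had medians of -0.88 and -0.61. Of the 8, 2 were at least 2-fold lower in TR9_MeTA14 (15.1% of all genes) and none in TR15_MeTA5 (2.21%). All 8 were below 0 in TR15_MeTA5 (64.1% of all genes). With spike-in scaling NSDHL, HSD17B7 and SC5D were not below 0 there, nor was NSDHL with quantile normalization, alone or after normexp. The lanosterol demethylase CYP51A1 showed 6.67 against 2.98, and 5.75 against 3.12, 2.24-fold and 1.84-fold lower. DHCR7, the reductase that yields cholesterol, was 2.33-fold and 1.77-fold lower. EBP, the sterol isomerase, was at -0.84 and -0.78, and MSMO1, the methylsterol oxidase, at -0.91 and -0.70. The reductase TM7SF2 was at -0.47 and -0.51, and the desaturase SC5D, whose signals of 20.7 to 59.6 units were near background, at -0.97 and -0.22. NSDHL and HSD17B7, partners in the removal of methyl groups, were nearest to 0, at 0.12 and -0.08 for NSDHL and at -0.05 and -0.32 for HSD17B7. Its other probes gave 0.13 and 0.03 in TR9_MeTA14 and -0.40 and -0.26 in TR15_MeTA5, so its sign in TR9_MeTA14 was not settled. HSD17B7 also has near-identical pseudogene copies that its probes may detect.

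Among the fatty acid genes the desaturases and elongases were lowest, with medians of -2.50 in TR9_MeTA14 and -1.11 in TR15_MeTA5 over 5 genes. FADS1, the delta-5 desaturase of polyunsaturated fatty acids, gave 11.4 against 1.25 in TR9_MeTA14, and 11.9 against 4.67 in TR15_MeTA5, 9.10-fold and 2.54-fold lower. FADS2, the delta-6 desaturase and its neighbour on chromosome 11, showed 51.0 against 17.0, and 68.1 against 25.6, 2.99-fold and 2.65-fold lower. For both genes the 2 -Tet arrays were above the 2 +Tet arrays.

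SCD, the stearoyl-CoA desaturase, was lower by slightly more in TR15_MeTA5, with 2.19 against 1.10 in TR9_MeTA14, and 3.30 against 1.53 in TR15_MeTA5. Its fold of 1.995 in TR9_MeTA14 lay just short of the 2-fold cut-off, and that of 2.16 in TR15_MeTA5 just beyond it. The elongases differed most between the lines, STARD4 with its bound aside. ELOVL5, which elongates polyunsaturated chains, gave 5.57 against 0.908 in TR9_MeTA14, 6.14-fold lower, and 3.65 against 2.67 in TR15_MeTA5, 1.36-fold lower. ELOVL6, which elongates saturated chains, was 5.64-fold and 1.36-fold lower.

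Of the enzymes that build the saturated chain, FASN, the fatty acid synthase, gave 99.2 against 40.7 in TR9_MeTA14, 2.44-fold lower, and 60.2 against 43.8 in TR15_MeTA5, 1.37-fold lower. ACACA, the acetyl-CoA carboxylase that makes malonyl-CoA, was at -0.85 and -0.40, the latter above 0 with spike-in scaling, and its dimmer probe at -1.36 and -0.42. LPIN1, a phosphatidate phosphatase of glycerolipid synthesis, showed 7.69 against 1.44, and 2.91 against 1.41, 5.34-fold and 2.06-fold lower. The +Tet arrays were nearly equal, and the -Tet arrays were far apart and both higher. A dimmer LPIN1 probe gave -1.09 in TR9_MeTA14 and was not well above background in TR15_MeTA5.

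The sizes differed between the lines while the order was alike. The change was lower in TR9_MeTA14 than in TR15_MeTA5 for 25 of 36 members (69.4%, beside 48.2% of 13976 genes), and of the 29 members below 0 in both, 25 (86.2%) were further below 0 in TR9_MeTA14, beside 74.2% of all genes below 0 in both. The interquartile range of the members' log2 fold changes was 1.39 in TR9_MeTA14 and 0.48 in TR15_MeTA5, beside 1.20 and 0.59 over all genes. Across the 36 genes the changes in the lines had Pearson's r of 0.78 and Spearman's rho of 0.69, beside 0.78 and 0.67 across all 13976 genes. Genes are not independent replicates and the points share the 4 arrays, so no p is given. With 4 arrays the difference between the lines in response to tetracycline has no residual degree of freedom and was not tested.

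**Figure D3:**
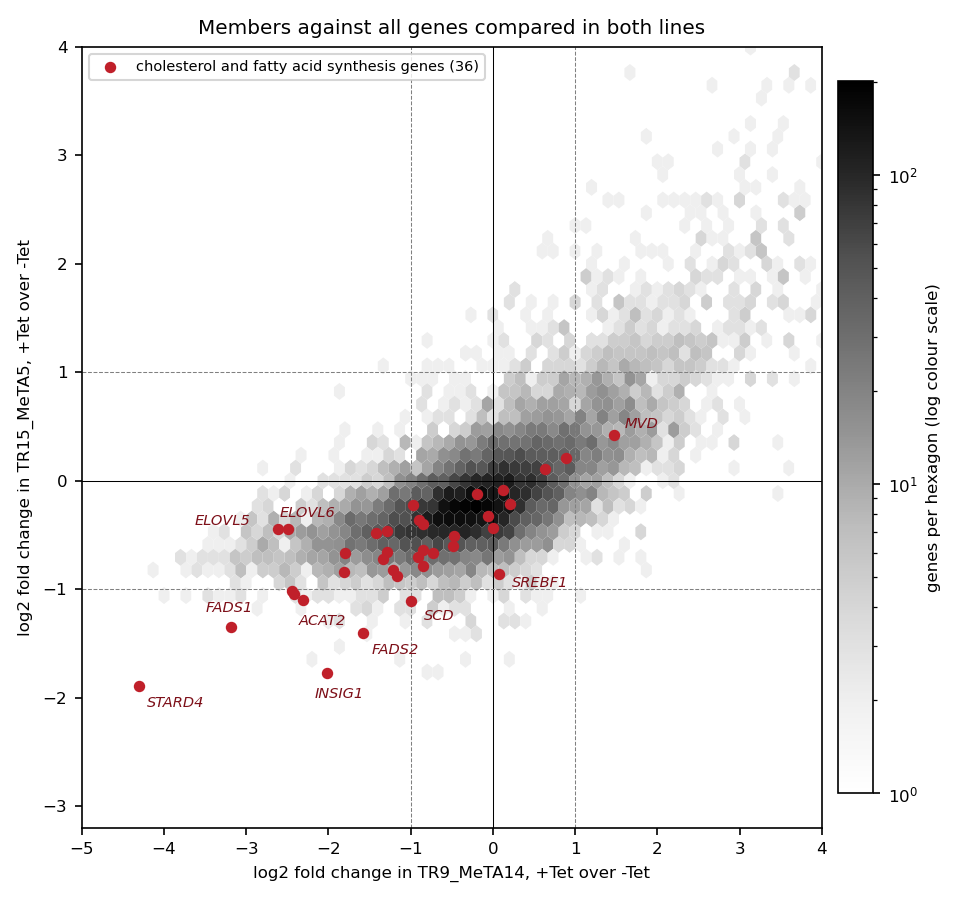
Log2 fold change with tetracycline in TR9_MeTA14 (x axis) against TR15_MeTA5 (y axis), with all 13976 genes compared in both lines as gray hexagons, some beyond the axes, and the 36 members as points. Most members lie in the lower left, with STARD4, INSIG1, FADS1 and FADS2 at its edge, and MVD lies in the upper right.

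Without tetracycline the lines differed in some members before induction. In TR15_MeTA5, 5 of 36 were at least 2-fold lower than in TR9_MeTA14 (5.18% of all genes), namely ME1, FDFT1, LSS, SREBF2 and LPIN1, and 1, EBP, was 2.17-fold higher (8.16%). Quantile normalization gave 6 lower and none higher (5.78% and 5.92% of all genes). Spike-in scaling, which put the median of all genes in this comparison at -0.93, gave 24 lower and none higher (44.9% and 1.10%). With tetracycline, 7 were at least 2-fold higher in TR15_MeTA5 (14.2%), namely ACAT2, EBP, STARD4, TMEM97, FADS1, ELOVL5 and ELOVL6, and MVD, IDI1 and LSS were at least 2-fold lower (10.4%). EBP and LSS thus differed between the lines with and without tetracycline, EBP 2.17-fold and 2.27-fold higher and LSS 2.41-fold and 3.48-fold lower in TR15_MeTA5. ME1, FDFT1, SREBF2 and LPIN1 differed by 1.02-fold to 1.21-fold between the lines with tetracycline. These comparisons use the same arrays as those of tetracycline. For the line, limma called none of the 36 (nor any other gene) at an adjusted p below 0.05, with 2 members higher (9.22% of all genes) and 3 lower (6.66%) in TR15_MeTA5 at an unadjusted p below 0.05.

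Neighbouring lipid pathways were read from lists of genes outside the 36. Sterol efflux, storage and LXR genes, only some of which act when sterols are plentiful, had medians of 0.03 in TR9_MeTA14 and -0.19 in TR15_MeTA5. Of 16 compared in both lines, 8 were below 0 in both (47.4% of all genes) and 4 above 0 in both (3979 of all 13976 genes). In TR9_MeTA14, 3 of 17 compared were at least 2-fold higher (16.8% of all genes) and 3 lower (15.1%). In TR15_MeTA5, 2 of 16 were higher (9.77%) and 1 lower (2.21%). Of the 16 compared in both lines, 2 passed 2-fold upward in both (8.21%) and none downward in both (0.837%). The 2 were ABCA1, the cholesterol exporter, and CYP27A1, the mitochondrial sterol 27-hydroxylase. ABCA1 read 3.54 units without and 524 with tetracycline in TR9_MeTA14, and 6.72 against 215 in TR15_MeTA5, at least 26.9-fold and 9.44-fold higher, with a limma adjusted p of 0.0416. CYP27A1 had 3.72 and 844 units in TR9_MeTA14 and 3.63 and 1104 in TR15_MeTA5, at least 43.4-fold and 48.4-fold higher, with a limma adjusted p of 0.0150. Neither was well above background without tetracycline in either line, and both entered the limma fit through the +Tet arrays, where they were high. The fit takes their -Tet values as measured. Both stayed below a limma adjusted p of 0.05 under the 10 alternatives tried, which use those low values too and so lend no further support.

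Genes of nonsterol isoprenoids and prenylation, which draw on farnesyl diphosphate, had medians of -0.35 and -0.37 over 16 genes. None passed 2-fold in both lines (8.21% of all genes upward and 0.837% downward). The 14 genes of SREBP processing and sterol-regulated degradation had medians of -0.32 and -0.33, with none past 2-fold in both. Fatty acid oxidation genes had medians of 0.17 and -0.24, and of 26 none passed 2-fold in both.

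Acyl-CoA and glycerolipid genes included members of either direction, with medians of 0.25 and -0.21. Of 29 compared in both lines, 6 passed 2-fold upward in both (8.21% of all genes) and 1 passed it downward in both (0.837%). The 1 lower in both was ACSL3, an acyl-CoA synthetase of lipid droplets, at -1.63 and -1.02 on the log2 scale. Taking the smaller change of each gene, the 5 highest were FABP5, AGPAT2, MLXIPL, SCD5 and ELOVL3. FABP5, a fatty acid binding protein, was 12.4-fold higher in TR9_MeTA14 and at least 61.7-fold higher in TR15_MeTA5 (limma adjusted p = 0.0529), and AGPAT2, an acyltransferase of phosphatidic acid synthesis, was 9.53-fold and 4.16-fold higher (limma adjusted p = 0.0652). SCD5, a second stearoyl-CoA desaturase, was at 1.39 in TR9_MeTA14 and at least at 2.63 in TR15_MeTA5, opposite in sign to SCD. ELOVL3, an elongase of very long chains, was at least at 1.12 and 1.88, opposite in sign to ELOVL5 and ELOVL6. MLXIPL, which encodes the glucose-responsive factor ChREBP, was at 1.97 and 1.39. By limma 1 gene of this list passed, PLIN2, a lipid droplet coat protein named here after its value was seen. It was at least 1.89-fold and 2.64-fold higher (limma adjusted p = 0.0491, ranging from 0.0145 to 0.142 over the alternatives). PLIN2 was not well above background without tetracycline in either line, and it entered the fit only through the +Tet arrays. The fit takes its -Tet values as measured, as it does that of FABP5 in TR15_MeTA5, so these p-values lend no further support.

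**Figure D4:**
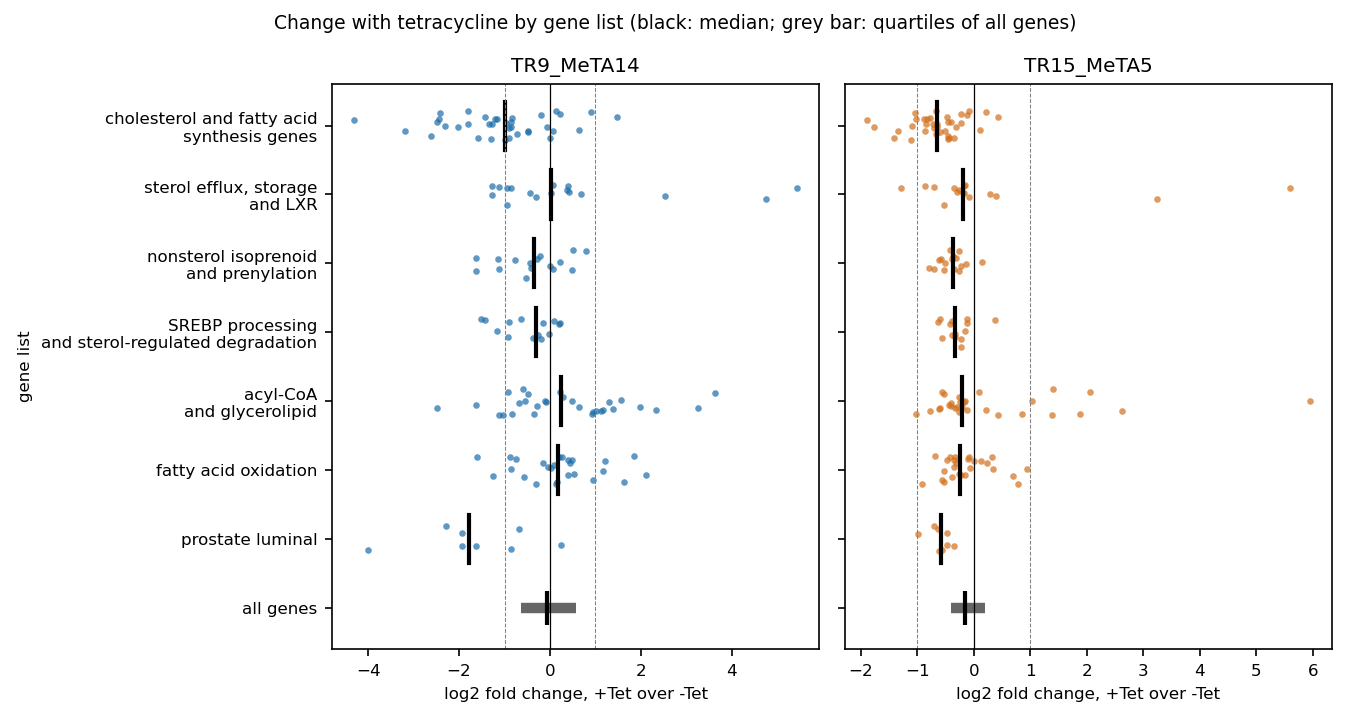
Log2 fold change with tetracycline (x axis) for the genes of each list (rows, 1 point per gene, black line at the median) in TR9_MeTA14 (left) and TR15_MeTA5 (right), above the quartiles of all genes (gray bar). The 36 members have medians of -0.98 and -0.65, lower than those of the other lipid lists, and the prostate luminal markers have medians of -1.78 and -0.58.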

How the data were processed

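RNA of 4 samples, 1 for each line with or without tetracycline, was labelled with Cy3 and hybridized to arrays of 1 slide. The authors deposited the intensity of every spot as Agilent Feature Extraction gave it (10.7.3.1 per the file headers, 9.5.1 per the submitters' processing notes), and the processed signal used here was background-subtracted within the array without any scaling across arrays. The deposited series table was identical to these signals in each of its 44495 rows. Outlier spots were left out, log2 values were averaged over a probe's spots, and each array was centred on its 75th percentile. That left out 15 of 34127 probes. Names were given to 25422 probes (74.5%) through RefSeq accessions, with symbols of GRCh38.p14, while the array design is annotated on hg19. A probe was compared where it was well above background on the brighter array. Where it was not so on the dimmer one, the fold is a bound against the higher of its own signal and the lowest signal well above background on that array. The 2-fold cut-off is that of the study's methods. Tetracycline was a term of a limma fit (limma 3.58.1, R 4.3.3) that held the line as a block. P-values were adjusted by Benjamini-Hochberg across 22808 probes, those that 2 or more arrays measured well above background, and the fit was tested on simulated data. The lines are treated there as replicates, so p-values rest on how far the tetracycline change differs between the 2 lines. That spread, with 1 degree of freedom, is pooled with a prior over all probes that carries 3.21. The p-values do not measure the spread between cultures of a line. All arrays share a slide, so it is no batch here. The number of arrays limits the precision.

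All 36 members were named, and of the other lists the genes at least 2-fold changed the same way in both lines, at most 5 a list by the smaller change. The members and lists were chosen with earlier results of these data known. Other scalings, background corrections, filters, probe rules and a 1.5-fold cut-off were tried. The value of 1 marker gene is not reported here.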

Additional observations from a re-analysis of the deposited data

Results flagged for a closer look

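PMVK, the phosphomevalonate kinase, was the only member whose log2 fold change with tetracycline lay beyond 2 technical SD in opposite directions, at 0.21 in TR9_MeTA14 and at -0.22 in TR15_MeTA5. The difference between the lines was not tested, since 4 arrays leave no residual degree of freedom for it. The TR15_MeTA5 value was near the median of all genes there, -0.16, at the 44.5th percentile.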

How the results depend on the processing

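Relative to all genes the members' median stayed lower in both lines under each alternative tried. The difference was 0.83 to 0.99 in TR9_MeTA14 and 0.34 to 0.49 in TR15_MeTA5 on the log2 scale. Median scaling, the percentile over spots and spike-in scaling add a constant to each array, and the series table changes nothing. The difference could hardly move under those settings, so they lend it no support. INSIG1 stayed at least 2-fold lower in both lines under each scaling, filter and probe rule. Counts past 2-fold did depend on the processing, and the causes were not tested, other than for spike-in scaling, which adds a constant to all genes of an array. Spike-in scaling moved the median of all genes by 0.14 and 0.43 (log2). The members' medians were then -0.84 and -0.22. At 2-fold, 2 members were higher in TR9_MeTA14 (18.8% of all genes), 2 lower in TR15_MeTA5 (0.690%) and 2 lower in both lines (0.207%). Without tetracycline 24 were 2-fold lower and 0 higher in TR15_MeTA5 than in TR9_MeTA14 (44.9% and 1.10% of all genes). HMGCS1, PMVK, NSDHL, HSD17B7, SC5D, SCAP and ACACA turned above 0 in TR15_MeTA5, and at an unadjusted limma p below 0.05 there were 8 members lower and 2 higher. Normexp with quantile normalization gave 4 lower in TR15_MeTA5 (0.551% of all genes) and 4 lower in both lines (0.200%). It gave a TR15_MeTA5 median of -0.45 (-0.34 relative to all genes) and 0 higher in the line comparison without tetracycline (2.47%). Quantile normalization alone gave a TR15_MeTA5 median of -0.55, 0 higher in that line comparison (5.92% of all genes), and 1 member, INSIG1, called lower by limma. With the percentile taken over spots limma also called 1, INSIG1, and 1 member was higher at an unadjusted p below 0.05. Without a filter limma called 2, INSIG1 and FADS1, 1 was higher at an unadjusted p below 0.05, and the TR9_MeTA14 median relative to all genes was -0.83, as it was with a filter on all 4 arrays. The mean over probes put 2 members at 2-fold higher in TR9_MeTA14 (16.6% of all genes). A 1.5-fold cut-off gave 3 higher in TR9_MeTA14, 20 lower in TR15_MeTA5, 18 lower in both lines, and 13 lower and 3 higher in the line comparison without tetracycline. Shares of all genes are not given for that cut-off, nor for the limma counts under these alternatives. Those counts are therefore not set against a background. The series table changed nothing, since it holds the same signals. The limma fit pairs the arrays by line. By replicate number, no paired analysis was possible because the groups share fewer than 2 replicate numbers, and with 1 array per condition no replicate could be left out.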
